A study of Mus musculus with 8 samples.

Results

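Genes of cytotoxic T cells and natural killer (NK) cells were compared between hearts of male WT and ARE-/- mice. The genes were chosen by name: Nkg7, Il2rb, Klrk1, Gzma, Gzmb, Prf1, Cd3e, Cd3g, Cd8a and Cd8b1, 10 genes in all. The deposited gene table, which lists 4820 genes, holds 8 of these 10. Gzma and Cd8b1 are not in it, and their levels were not analysed here. The groups were 4 WT and 4 ARE-/- hearts, all of strain C57B6/J and all 20 to 25 weeks old, and no treatment is given. The title of the series names interferon gamma, androgens and mitochondrial function of heart muscle cells. ARE is not spelled out in the labels and was taken to mean the AU-rich element in the Ifng transcript, which is known to speed its decay. Nothing in the labels restricts the ARE-/- genotype to a cell type, and whole hearts were sequenced. The labels do not say which heart came from which litter or day, so the p-values measure the spread between these libraries.

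Cytotoxic lymphocytes kill target cells by releasing granules that hold perforin, which opens the target membrane, and granzymes, proteases that start cell death inside the target. CD8 T cells find targets through the T cell receptor with its CD3 chains and the coreceptor CD8, whereas NK cells, and also activated CD8 T cells, use receptors such as NKG2D, the product of Klrk1. Interleukins 2 and 15 signal through the receptor chain encoded by Il2rb and sustain both cell types. Both are sources of interferon gamma, the product of Ifng.

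Library totals ran from 13416171 to 19432098 reads. Ifng was counted at 0, 3, 0 and 1 reads in WT replicates 1 to 4 and at 103, 37, 27 and 61 reads in ARE-/- replicates 1 to 4. Most extremes of the genes described here fell in ARE-/- replicate 1, WT replicate 3 and WT replicate 1, so the values of the genes are given for each library.

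All 8 genes in the table were higher in ARE-/- hearts by the authors' call, an adjusted p under 0.05 by DESeq2 over all genes they tested. The table holds only genes that passed this call, so presence in it is the call itself, and Gzma and Cd8b1 have no known direction. Over all 19606 genes tested, 24.6% were called in either direction and 12.8% were called higher in ARE-/-. In all 8 genes the lowest ARE-/- library lay above the highest WT library, as was so for 1971 of all 2512 listed genes that were higher (78.5%), so separate groups were usual among such genes. The 8 genes together took 20.7, 9.27, 18.6 and 9.05 RPM (reads scaled to library total) in WT replicates 1 to 4 and 158, 123, 121 and 117 in ARE-/- replicates 1 to 4. The values come from whole tissue, where more cells of a type and more RNA per cell cannot be told apart. All 8 genes were also past the threshold in an edgeR quasi-likelihood refit without ARE-/- replicate 1 and WT replicate 3, and in another without ARE-/- replicate 1 and WT replicate 1. Like all refits described here, these ran only on genes that the authors had called from the same libraries. Passing again is therefore no independent support for a call.

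**Figure D1:**
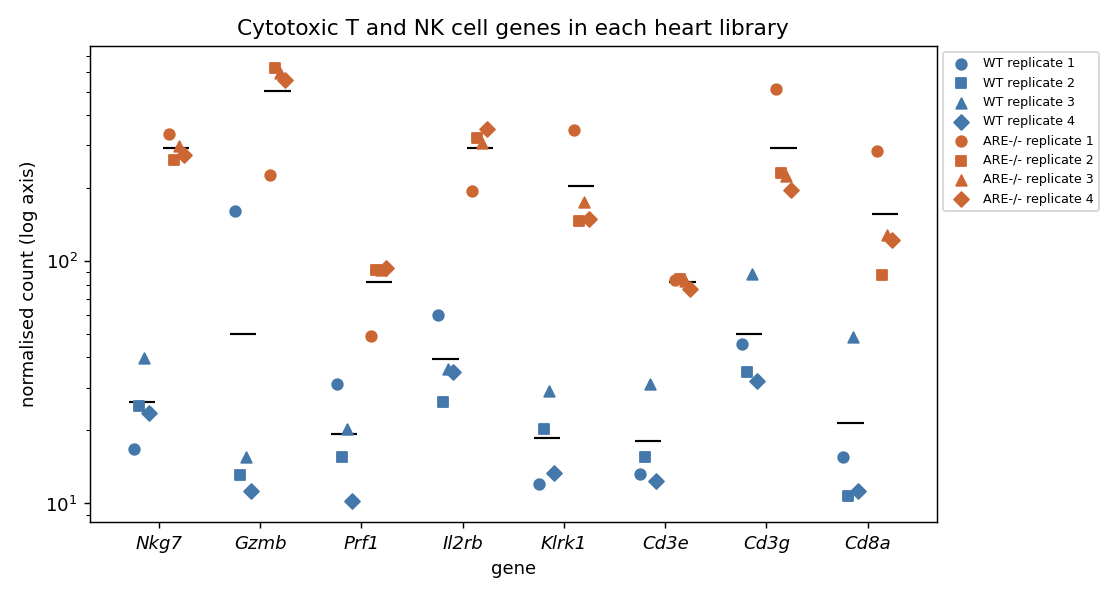
Normalised counts (log axis) of the 8 listed cytotoxic T and NK cell genes in each of the 8 heart libraries, with WT in blue, ARE-/- in orange, a marker shape for each replicate number and a black line at the group mean. All ARE-/- libraries lie above all WT libraries of the same gene, and the gap is narrowest in Gzmb, between WT replicate 1 at 161 and ARE-/- replicate 1 at 227.

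The granule genes Nkg7, Gzmb and Prf1 were all higher in ARE-/- hearts. Nkg7 encodes a granule membrane protein of NK and cytotoxic T cells. The gene (ENSMUSG00000004612) spans 43437073 to 43438246 of chromosome 7 (mm10, forward strand). Its normalised counts, which are read counts divided by the authors' size factors, were 16.8, 25.1, 39.7 and 23.6 in WT replicates 1 to 4 and 333, 261, 299 and 274 in ARE-/- replicates 1 to 4. No library stood far from its group, and the groups were separated by a wide gap. The log2 difference of Nkg7 was 3.50 ± 0.26 (SE, n = 4 each), against a log2 fold change of 3.32 in the authors' deposited table, where its DESeq2 adjusted p is 3.6e-38. Set against library depth, the summed Nkg7 reads were 12.5 times as many in ARE-/- as in WT, and the exact 95% interval, for counting error alone, ran from 10.2 to 15.4.

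Gzmb encodes granzyme B, the protease that cleaves caspases and their targets in a cell under attack. The gene lies on the reverse strand of chromosome 14, from 56258856 to 56262260 in mm10. Gzmb normalised counts were 161, 13.2, 15.5 and 11.3 in WT replicates 1 to 4 and 227, 628, 598 and 559 in ARE-/- replicates 1 to 4. A single WT library therefore came close to the lowest ARE-/- library, and that ARE-/- library was far below the other ARE-/- libraries. The log2 difference of Gzmb was 4.20 ± 0.96 (SE, n = 4 each), the least precise of the 8, and it was 5.09 without WT replicate 1. On this scale, a mean of logs, it was the largest of the 8, but in edgeR with the authors' size factors Gzmb had a log2 fold change of 3.35, below Nkg7 (3.45) and Klrk1 (3.43). In the authors' deposited table Gzmb has a smaller log2 fold change, 2.12, and its DESeq2 adjusted p is 0.00458. Prf1 encodes perforin, and its normalised counts were 31.2, 15.6, 20.3 and 10.3 in WT and 49.1, 91.8, 92.2 and 93.7 in ARE-/-, in order of replicate number. It had the same high and low libraries as Gzmb, WT replicate 1 and ARE-/- replicate 1. Its log2 difference was 2.11 ± 0.40 (SE, n = 4 each), the smallest of the 8, with an adjusted p of 9.2e-07 in the authors' deposited table (DESeq2).

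The receptor genes Il2rb and Klrk1 were higher as well. Il2rb, on the reverse strand of chromosome 15 from 78480553 to 78495066, encodes the signalling chain shared by the receptors of interleukins 2 and 15. Il2rb normalised counts were 60.1, 26.3, 35.8 and 34.9 in WT and 195, 321, 307 and 349 in ARE-/-, in order of replicate number. As for Gzmb and Prf1, WT replicate 1 was the highest WT library and ARE-/- replicate 1 the lowest ARE-/- library. The log2 difference of Il2rb was 2.91 ± 0.31 (SE, n = 4 each), with an adjusted p of 6.5e-21 in the authors' deposited table (DESeq2). Klrk1 encodes the activating receptor NKG2D and lies on the reverse strand of chromosome 6, from 129610323 to 129623864. Klrk1 normalised counts were 12, 20.3, 29.0 and 13.4 in WT and 346, 147, 176 and 149 in ARE-/-, in order of replicate number. Here ARE-/- replicate 1 was the highest ARE-/- library, at 2.21 times the geometric mean of the other ARE-/- libraries. The log2 difference of Klrk1 was 3.40 ± 0.41 (SE, n = 4 each), and its adjusted p was 7.5e-17 in the authors' deposited table (DESeq2).

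The T cell receptor genes Cd3e and Cd3g and the coreceptor gene Cd8a completed the set. Cd3e and Cd3g encode the epsilon and gamma chains that assemble with the T cell receptor and carry its signal, and both lie on the reverse strand of chromosome 9, at 44998743 to 45009590 and 44969572 to 44980431. Cd3e normalised counts were 13.2, 15.6, 31.0 and 12.3 in WT and 83.4, 83.9, 82.5 and 76.9 in ARE-/-. This was the gene with the closest ARE-/- values, and WT replicate 3 was the high WT library. Its log2 difference was 2.25 ± 0.30 (SE, n = 4 each), with an adjusted p of 2.0e-09 in the authors' deposited table (DESeq2). The GENCODE M21 annotation (GRCm38) places an antisense gene, Gm48719, and a same-strand transcript, Gm48720, across Cd3e, and whether the counting used strand is not known, so Cd3e reads cannot be told apart from theirs. None of the other 7 genes overlaps another gene in that annotation.

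Cd3g normalised counts were 45.6, 34.7, 88.1 and 31.9 in WT and 512, 232, 224 and 197 in ARE-/-, in order of replicate number. WT replicate 3 and ARE-/- replicate 1 were the highest of their groups. The log2 difference of Cd3g was 2.54 ± 0.45 (SE, n = 4 each), with an adjusted p of 7.4e-09 in the authors' deposited table (DESeq2). Cd8a (chromosome 6, 71373427 to 71379171, forward strand) encodes the alpha chain of CD8, which binds class I molecules and is also carried by some dendritic cells. Cd8a normalised counts were 15.6, 10.8, 48.4 and 11.3 in WT and 285, 87.3, 128 and 123 in ARE-/-. Again WT replicate 3 and ARE-/- replicate 1 were the highest, by a wider margin than in Cd3g. The log2 difference of Cd8a was 2.97 ± 0.61 (SE, n = 4 each), with an adjusted p of 6.5e-07 in the authors' deposited table (DESeq2).

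The 8 genes thus divided by which library of a group was high or low. Il2rb, Gzmb and Prf1 shared WT replicate 1 as the highest WT library and ARE-/- replicate 1 as the lowest ARE-/- library, an arrangement seen in 218 of the 2512 listed genes that were higher in ARE-/- (8.68%). In Nkg7, Klrk1, Cd3g and Cd8a the highest libraries were WT replicate 3 and ARE-/- replicate 1, an arrangement seen in 591 of the 2512 (23.5%). Cd3e had WT replicate 3 as the highest WT library, and its ARE-/- libraries were nearly level. In ARE-/- replicate 1, Gzmb stood at 0.383, Prf1 at 0.533 and Il2rb at 0.598 times the geometric mean of the other ARE-/- libraries. The same ratio was 2.55 for Cd8a, 2.36 for Cd3g and 1.2 for Nkg7. Each of these statements about ARE-/- replicate 1 rests on a single library and has no test.

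**Figure D2:**
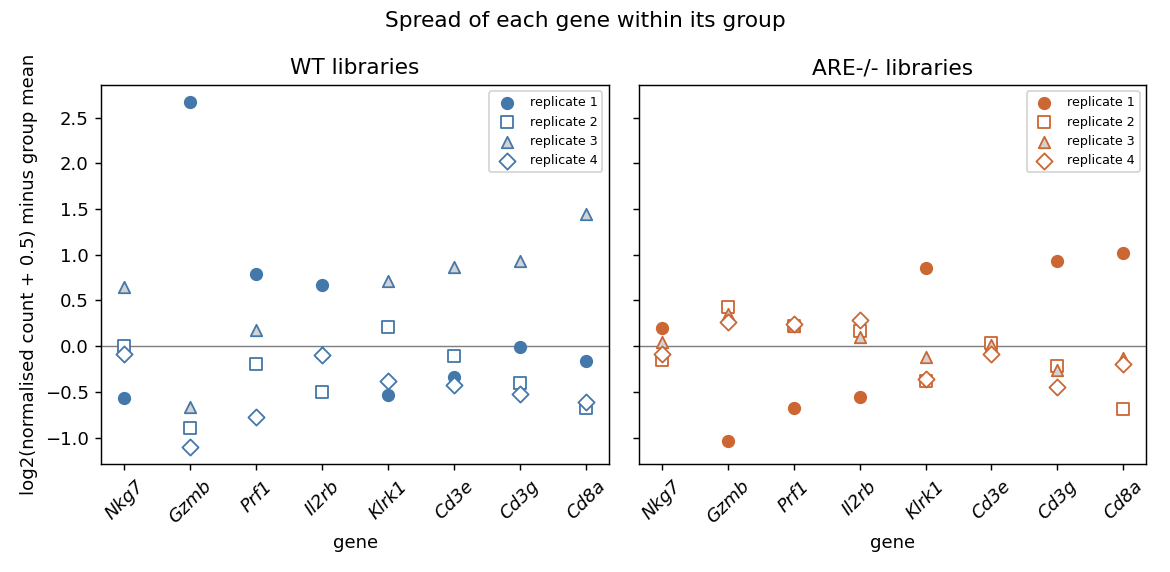
Log2(normalised count + 0.5) of each gene in each library minus the mean of its group, for the 4 WT libraries (left) and the 4 ARE-/- libraries (right), with a marker shape for each replicate number. Replicate 1 of ARE-/- lies lowest for Gzmb, Prf1 and Il2rb and highest for Nkg7, Klrk1, Cd3g and Cd8a, and replicate 1 of WT lies highest for Gzmb, Prf1 and Il2rb.

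The ratio of Gzmb to Cd3g, both in FPKM (fragments scaled to transcript length and library depth), showed this division within each library. It was 2.54, 0.274, 0.127 and 0.256 in WT replicates 1 to 4 and 0.320, 1.96, 1.93 and 2.05 in ARE-/- replicates 1 to 4. WT replicate 1 thus had a ratio above all ARE-/- libraries, and ARE-/- replicate 1 a ratio close to those of the other WT libraries. The ratio of Klrk1 to Cd3g moved less between libraries, at 0.0842, 0.188, 0.105 and 0.134 in WT and 0.216, 0.203, 0.251 and 0.242 in ARE-/-.

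On the length-scaled FPKM level, Gzmb, Nkg7 and Cd3g were the most abundant of the set in ARE-/- hearts. Gzmb ranged from 12.5 to 29.5 FPKM, with a median of 26.1, Nkg7 from 19.8 to 29.6, with a median of 20.8, and Cd3g from 12.4 to 39.0, with a median of 14.5. These ranges overlap, so the order of the 3 genes is not set beyond their spread. Il2rb followed at 5.64 to 8.33 FPKM, below all values of those 3. By their medians Cd3e (3.77, range 3.44 to 4.53), Klrk1 (3.27, range 2.99 to 8.44), Prf1 (2.89, range 1.86 to 2.98) and Cd8a (2.56, range 1.86 to 7.09) were lower still. Neighbours in this order from Il2rb on overlapped between Cd3e and Klrk1 and between Prf1 and Cd8a, whereas all Il2rb values lay above those of Cd3e, and all Klrk1 values narrowly above those of Prf1. In WT hearts the highest median level was that of Cd3g, at 2.27 FPKM, and the lowest that of Cd8a, at 0.255 FPKM. Gzmb had a WT median of 0.596 FPKM, with WT replicate 1 at 6.60.

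Promoter sequences of these genes are shown because the genes were called higher together and because T-box and RUNX factors, among them the product of Tbx21, are known regulators of cytotoxic genes. RefSeq (GRCm38.p6) windows of 300 bases, from 250 before to 50 after the start, were at hand for 7 of the 8 listed genes. Below, capitals mark AGGTGT, the core of T-box sites, and TGTGGT, the core of RUNX sites, searched on both strands, so that a reverse-strand match reads ACACCT or ACCACA. The windows are those of Nkg7 (chr7:43436888-43437187, forward strand), Prf1 (chr10:61297586-61297885, forward strand), Gzmb (chr14:56262285-56262584, reverse strand) and Cd3g (chr9:44980382-44980681, reverse strand), each printed 5′ to 3′ in the direction of its gene.
Nkg7: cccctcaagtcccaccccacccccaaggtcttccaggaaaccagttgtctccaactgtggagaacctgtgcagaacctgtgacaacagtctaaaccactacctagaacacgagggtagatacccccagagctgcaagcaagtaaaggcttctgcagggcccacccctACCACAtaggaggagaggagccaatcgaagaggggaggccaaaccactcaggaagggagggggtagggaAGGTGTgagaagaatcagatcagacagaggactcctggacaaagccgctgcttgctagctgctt
Prf1: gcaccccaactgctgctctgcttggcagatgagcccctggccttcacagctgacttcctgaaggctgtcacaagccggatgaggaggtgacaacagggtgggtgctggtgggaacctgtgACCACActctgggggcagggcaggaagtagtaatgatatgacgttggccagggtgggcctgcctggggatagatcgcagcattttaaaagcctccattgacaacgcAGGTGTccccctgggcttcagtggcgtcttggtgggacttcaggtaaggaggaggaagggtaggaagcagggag
Gzmb: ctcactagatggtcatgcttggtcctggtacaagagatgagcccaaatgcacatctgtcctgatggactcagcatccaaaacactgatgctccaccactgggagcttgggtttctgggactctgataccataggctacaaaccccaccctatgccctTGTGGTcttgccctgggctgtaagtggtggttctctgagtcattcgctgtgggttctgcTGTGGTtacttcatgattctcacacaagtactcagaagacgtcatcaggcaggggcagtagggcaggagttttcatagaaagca
Cd3g: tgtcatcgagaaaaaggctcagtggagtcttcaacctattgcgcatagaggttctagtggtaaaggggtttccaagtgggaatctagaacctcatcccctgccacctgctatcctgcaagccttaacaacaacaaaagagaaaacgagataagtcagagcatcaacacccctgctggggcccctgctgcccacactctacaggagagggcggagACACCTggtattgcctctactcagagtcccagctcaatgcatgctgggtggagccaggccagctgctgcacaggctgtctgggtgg

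The T-box core was present in 4 of the 7 windows (Nkg7, Prf1, Cd3e and Cd3g) and in 13.7% of all 32851 RefSeq promoter windows of this length. The RUNX core was present in 4 of 7 (Nkg7, Prf1, Gzmb and Klrk1) and in 16.8% of all windows. The window of Gzma, a gene of no known direction, held both cores as well. In Nkg7 the T-box core began 14 bases before the start and in Prf1 24 bases before it. Gzmb held the RUNX core at 93 and at 34 bases before the start and no T-box core in this window. The interferon-activated motif TTCNNNGAA was in 2 of 7 windows (Nkg7 and Gzmb) and in 8.30% of all, and the ETS core AGGAAG in 3 of 7 and in 35.4% of all. A match is a description of letters and not a bound site. Among the genes of these factors, Tbx21 rose by 1.92 ± 0.25 on the log2 scale and Runx3 by 1.43 ± 0.34 (SE, n = 4 each, DESeq2 adjusted p of 4.5e-06 for Tbx21 and 4.0e-04 for Runx3 in the authors' deposited table). Eomes, another T-box gene, was not listed, so its direction is not known. Whether these factors bear on the genes was not tested.

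To compare the genes with the leukocyte signal of the same library, each gene's log2 normalised count was set against the mean of 15 listed pan-leukocyte genes, such as Hcls1, Laptm5 and Coro1a. That mean was itself higher in ARE-/- by 1.89 ± 0.24 (SE, n = 4 each). Relative to it, Nkg7 was higher by a further 1.62 ± 0.18, Klrk1 by 1.52 ± 0.26 and Cd3g by 0.65 ± 0.23 (SE, n = 4 each), each with no overlap between groups and an exact two-sided permutation p of 0.0286, the smallest that 4 against 4 libraries allow. For Cd3g the groups only just separated, with WT replicate 3 at -1.645 and ARE-/- replicate 4 at -1.629 relative to the pan-leukocyte mean. The remaining 5 genes overlapped between groups on this relative scale. Their differences were 2.32 ± 1.04 for Gzmb (exact permutation p = 0.0857; 3.24 without WT replicate 1), 1.08 ± 0.38 for Cd8a (exact permutation p = 0.0571) and 1.03 ± 0.44 for Il2rb (exact permutation p = 0.0857), all with SE and n = 4 each. Cd3e differed by 0.36 ± 0.17 (exact permutation p = 0.0857) and Prf1 by 0.22 ± 0.48 (exact permutation p = 0.657). These 8 tests are unadjusted, and both sides come from genes that the authors had called. Ptprc, the usual pan-leukocyte gene, is not in the table.

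**Figure D3:**
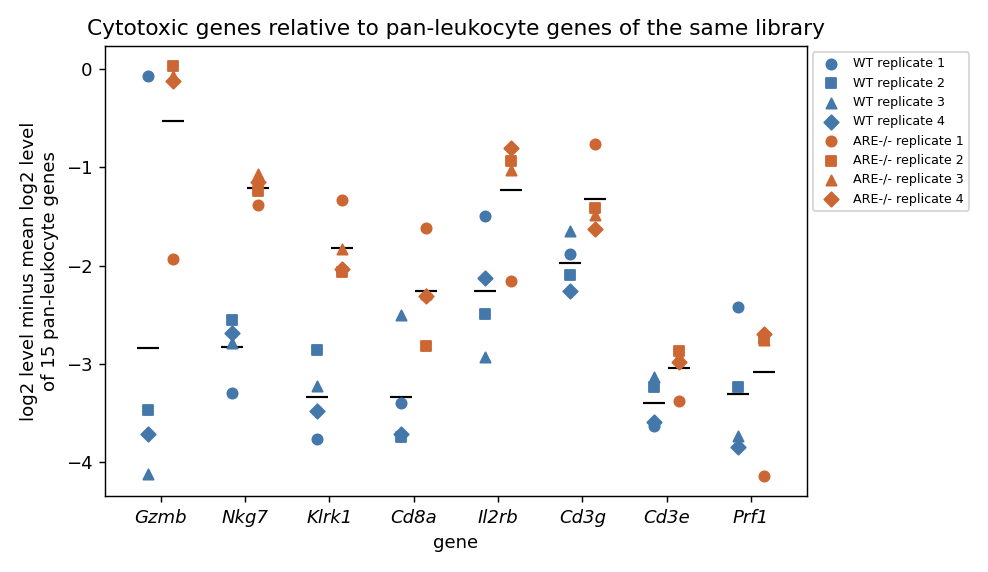
Log2 normalised count of each gene minus the mean of 15 pan-leukocyte genes in the same library, with WT in blue, ARE-/- in orange, a marker shape for each replicate number and black lines at group means. Groups are separate for Nkg7, Klrk1 and, narrowly, Cd3g, and overlap for the other 5 genes.

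Other genes of the same pathways mostly moved the same way. Among all 4820 listed genes 52.1% were higher, with a median log2 difference of 0.44. On a list of 25 T cell receptor and signalling genes, 17 were in the table and all 17 were higher (median log2 difference 1.62), among them Lcp2 (2.03 ± 0.31), the kinase genes Zap70 (2.48 ± 0.42) and Lck (1.82 ± 0.36), Sh2d2a (1.86 ± 0.18) and the receptor constant region Trbc2 (1.62 ± 0.40; SE, n = 4 each). ARE-/- replicate 1 was the highest ARE-/- library in 15 of the 17, against 38.7% of listed genes that were higher in ARE-/-. This was not particular to the T cell list. The same library was highest for 14 of 17 listed NK receptor and adaptor genes, 12 of 18 recruitment and adhesion genes and 11 of 15 pan-leukocyte genes. It was highest for 9 of 13 macrophage and monocyte markers, but for only 3 of 8 lymphocyte transcription factors. In edgeR 12 of the 17 T cell receptor and signalling genes passed with the authors' size factors, 11 with TMM scaling and 16 without ARE-/- replicate 1 and WT replicate 3. Of 25 NK receptor and adaptor genes, 17 were listed and all 17 were higher, with a median of 2.68. Among them were Slamf7 (5.13 ± 0.58), Klrd1 (2.96 ± 0.35), Klrb1c (2.44 ± 0.31), Cd244 (2.43 ± 0.29) and Tyrobp (2.33 ± 0.17), whose product passes on NKG2D signals in mice and is also made by macrophages. In edgeR 16 of the 17 passed with the authors' size factors, 15 with TMM scaling and 16 without ARE-/- replicate 1 and WT replicate 3.

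Of 20 further genes of granule and death-receptor killing, 13 were listed, 12 higher and 1 lower, with a median of 1.57. Ctsw, a protease gene of cytotoxic cells, stood at 3.07 ± 0.24, Serpinb9, an inhibitor of granzyme B, at 1.90 ± 0.22, and Stxbp2, needed for granule release, at 1.57 ± 0.18 (SE, n = 4 each). Bid (2.19 ± 0.34), a substrate of granzyme B, and the death ligand gene Tnfsf10 (1.57 ± 0.27) were also higher. Gzmm, which encodes granzyme M, was the 1 lower gene, at -0.61 ± 0.19, from 138 ± 20.6 to 90.8 ± 18.5 normalised counts (SD, n = 4 each), with overlapping groups and an adjusted p of 0.0406 in the authors' deposited table (DESeq2). Gzmm was not past the edgeR threshold with the authors' size factors (adjusted p = 0.0556) or library totals (adjusted p = 0.213).

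Genes of cytokine signalling and fate were less uniform. Of 18 genes of signalling by interleukins 2 and 15 and by other interleukins, 7 were listed, 5 higher and 2 lower. Among the listed genes Il12rb1, Il12rb2 and Il21r belong to receptors of other interleukins. Il2rg, the partner chain of Il2rb, rose by 1.76 ± 0.18, and Il12rb1 (2.96 ± 0.23), Il21r (1.5 ± 0.15) and Jak3 (0.99 ± 0.29) were higher too. Il15, which encodes a ligand of the Il2rb chain, was lower: its normalised counts were 480, 449, 498 and 468 in WT and 294, 262, 259 and 291 in ARE-/-. The groups were separate, and the log2 difference was -0.78 ± 0.06 (SE, n = 4 each), with an adjusted p of 9.3e-08 in the authors' deposited table (DESeq2). Il12rb2 stood at -1.08 ± 0.34 (SE, n = 4 each), with overlapping groups, and was not past the edgeR threshold with the authors' size factors (adjusted p = 0.0543) or library totals (adjusted p = 0.313). Of 20 lymphocyte transcription factors 8 were listed, 6 higher and 2 lower. Zfp683, a factor of resident lymphocytes, stood at 4.46 ± 0.72, Batf at 1.97 ± 0.24 and Id2 at 1.41 ± 0.33, whereas Lef1, a factor of naive T cells, stood at -2.63 ± 0.45 and Hopx, also a gene of cardiomyocytes, at -0.76 ± 0.19 (SE, n = 4 each).

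None of the 9 genes for ligands of NKG2D was in the table, so their direction is not known. Of 24 recruitment and adhesion genes, 18 were listed and all 18 were higher (median 2.22). They included the chemokine genes Cxcl9 (5.63 ± 0.39), Xcl1 (5.13 ± 0.43) and Ccl5 (3.27 ± 0.23) and the integrin gene Itgb7 (2.78 ± 0.19). A list of 13 genes held inhibitory receptors and ligands, but also costimulatory receptors such as that of Tnfrsf9, and the enzyme gene Entpd1. Of these 13 genes, 9 were listed, 8 higher and 1 lower. Cd274 stood at 4.09 ± 0.10, Pdcd1lg2 at 3.86 ± 0.49, Tnfrsf9 at 2.77 ± 0.43, Havcr2 at 2.53 ± 0.57 and Lag3 at 2.40 ± 0.30, and Ctla4, an inhibitory receptor of T cells, stood at -1.46 ± 0.36 (SE, n = 4 each). Ctla4 passed the edgeR threshold with the authors' size factors (adjusted p = 0.0249) but not with library totals (adjusted p = 0.109).

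Over the 8 pathway lists 83 genes were higher by the authors' call. The edgeR refits ran on called genes alone. In them 71 of the 83 passed the threshold with TMM scaling, 76 with library totals and 81 without ARE-/- replicate 1 and WT replicate 3. In that last refit the counts higher and lower were 12 and 1 for killing, 5 and 2 for interleukin signalling, and 6 and 2 for transcription factors. They were 18 and 0 for recruitment, and 8 and 1 for the list of inhibitory and costimulatory genes. All these counts were as by the authors' call.

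**Figure D4:**
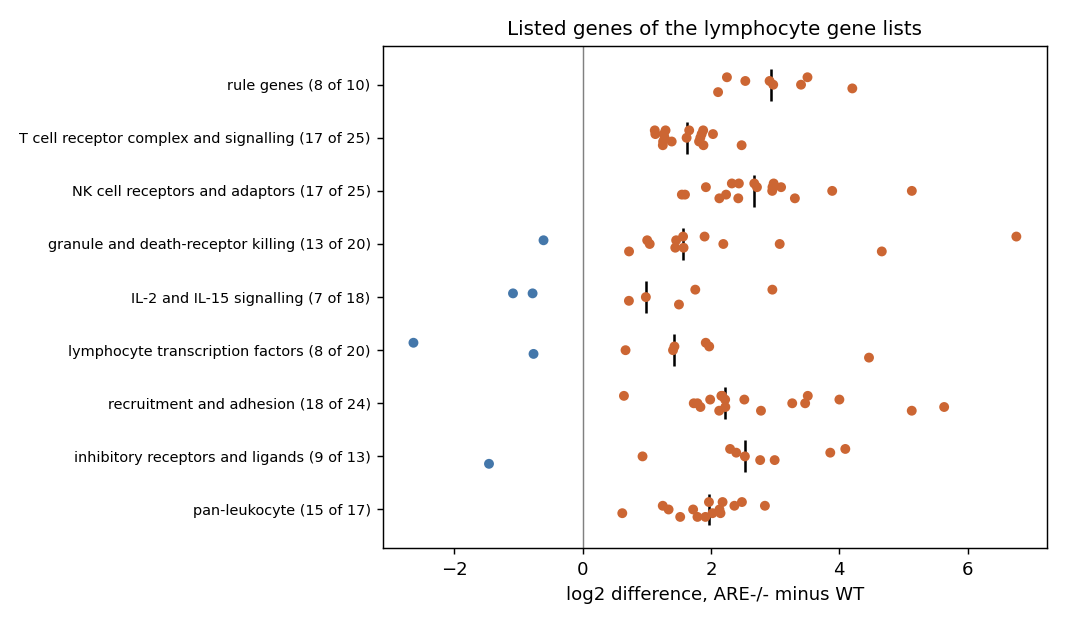
Log2 difference (ARE-/- minus WT) of each listed gene of the 10 genes chosen by name, of 7 pathway lists and of the pan-leukocyte list, with orange for higher, blue for lower and a black line at the median of each list. Numbers in brackets are listed genes of all genes on the list, and the list medians run from 0.99 for interleukin signalling to 2.94 for the genes chosen by name.

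Markers of other cells that a heart sample could hold moved too, and their part in the values above was not tested. All 15 listed of 17 pan-leukocyte genes were higher, their summed normalised counts running from 3378 to 5834 in WT and from 13691 to 19880 in ARE-/-. Of 16 macrophage and monocyte markers 13 were listed and 12 were higher, with sums of 7812 to 12760 in WT and 42914 to 59562 in ARE-/-. Most listed macrophage and monocyte markers thus rose beside the genes of cytotoxic cells. Of 7 dendritic cell markers 4 were listed, 3 higher and 1 lower, with sums of 69.9 to 113 in WT and 389 to 562 in ARE-/-. Of 9 markers of CD4 helper and regulatory T cells 2 were listed, Cd4 higher (1.27 ± 0.23) and Ctla4 lower, and the sums of the pair ran from 47.9 to 63.7 in WT and from 47.4 to 94.0 in ARE-/-. The B and plasma cell list had 1 listed gene, Pax5, at -2.67 ± 0.56 (SE, n = 4 each).

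The listed transcripts of other granule-bearing cells were lower. All 4 listed of 5 mast cell markers were lower, with sums of 335 to 440 in WT and 18.4 to 21.6 in ARE-/-, and the mast cell protease gene Mcpt4 stood at -4.32 ± 0.22 (SE, n = 4 each). All 5 listed of 11 neutrophil markers were lower, with sums of 115 to 221 in WT and 19.2 to 43.3 in ARE-/-. Mmp9, with a mean of 104 normalised counts in WT and 26.5 in ARE-/-, made up most of these sums. Mpo, Elane, Camp and Ngp were low, with WT means of 3.41 to 23.6. Neutrophil markers such as S100a8, S100a9 and Ly6g were not listed, so their direction is not known. Both listed of 5 platelet markers were lower as well, though neither passed the edgeR threshold with library totals. The same scaling ended the lower calls on the macrophage marker Cd163, the dendritic cell marker Siglech and the endothelial marker Kdr, with edgeR adjusted p of 0.178, 0.117 and 0.103. Siglech and the platelet marker Ppbp were not past the edgeR threshold with the authors' size factors either (adjusted p = 0.0515 and 0.0512). Of 10 cardiomyocyte markers 8 were listed and all 8 were lower, of 6 endothelial markers 1 of 2 was higher, and all 3 listed of 7 fibroblast markers were higher. No listed marker was at 0 in all libraries.

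The profile over the 8 libraries that lay nearest to the mean profile of the 8 genes was that of Cd68, a macrophage gene, with a root mean square difference of 0.16 on the log2 scale. Ctsw (0.20), Itgb7 (0.21), Slc11a1 (0.21) and Casp12 (0.22) followed. Taken singly, Cd3e lay nearest to Coro1a (0.072) and Cd3g to Cd48 (0.13), both pan-leukocyte genes, and Il2rb lay nearest to Ctsw (0.25). Gzmb had no close match, its nearest gene being C6 at 1.01.

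The genotype difference of the listed genes also moved with the GC content of transcripts, from a median of -0.68 in the lowest of 10 bins of GC content to 0.77 in the highest. Klrk1 (32.7% GC) and Cd3g (38.5%) lay well under the median of 50% for listed genes, whereas Nkg7 (53.1%), Prf1 (53.6%) and Il2rb (53.9%) lay above it. With the median of a gene's own bin subtracted, the log2 differences were 4.8 for Gzmb, 4.08 for Klrk1, 3.59 for Cd8a, 3.21 for Cd3g, 2.86 for Nkg7, 2.85 for Cd3e, 2.18 for Il2rb and 1.46 for Prf1. All 8 stayed above 0, each moved by more than 1.5 times as a fold, and the order of the genes changed. The bins hold only called genes, higher and lower, and the median passed from -0.44 in bin 5 to 0.49 in bin 6. No bin had a median near 0, so some move of every gene was fixed by this choice. The subtracted values describe the listed genes and are not a correction for GC content.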

How the data were processed

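Total RNA of 8 mouse hearts was sequenced with paired ends, per the labels' protocols. The submitters' processing notes name STAR, DESeq2 and the build mm10. How reads were counted, with or without strand, and which versions were used is not given in the sources at hand. Per the file headers, the deposited table has a count column for each library, all whole numbers. Other columns hold FPKM per library, deposited by the authors, the authors' normalised signal (the mean of size-factor scaled counts per group), with the authors' log2 fold changes and p-values, raw and adjusted. Size factors and library totals were solved from these columns. The table lists only the 4820 genes past the authors' threshold, of 19606 tested as their adjustment implies, so their calls were taken as the result. A second deposited table, of Gene Ontology terms, was not used.

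A log2 difference here subtracts the WT mean of log2(normalised count + 0.5) from the ARE-/- mean. The added 0.5 shrinks the change of low genes. The difference can still exceed the log2 fold change in the authors' deposited table, as for Gzmb (4.20 against 2.12) and Zfp683 (4.46 against 3.27). In a DESeq2 refit with the authors' size factors Gzmb had a log2 fold change of 3.33. All 8 genes had a smaller log2 fold change in the authors' deposited table than in that refit. The cause of this gap was not tested. No test of the size of these differences was made beyond the authors' own. Relative levels were compared with exact two-sided permutation tests (scipy 1.17.1). Counting intervals are exact Clopper-Pearson intervals at 95%. No filter on low values was applied. Groups came from library titles. Refits used edgeR 4.0.16 with limma 3.58.1 in R 4.3.3 and DESeq2 1.42.0, adjusted as if 19606 genes had been tested, and served only as alternatives. The edgeR fit was tested on simulated data in which only a small part of the genes changed. The refits ran on called genes alone, a setting that this simulation does not cover. List genes were matched by symbol or Ensembl ID, which added Emr1 for Adgre1. The genes, the 20 lists and the naming rule were chosen with earlier results of these data known. The rule names all 8 genes, up to 5 genes of each list by adjusted p, those that moved against their list, and the 5 nearest profiles. The result of 1 gene that the rule names is not reported here. Genes outside this rule, the motifs and the closest profile of each single gene were chosen after values were seen.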

Additional observations from a re-analysis of the deposited data

Results flagged for a closer look

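Of the 16 sets of 4 libraries (8 genes in each of 2 groups), 6 had a library whose gap to its nearest neighbour was a larger share of the range than Dixon's 95% critical value. Chance flags about 1 in 20 such sets, and the 16 sets share the same 8 libraries. ARE-/- replicate 1 was the library in 4 of them. It was high for Klrk1, at 346 normalised counts against 147 to 176, and for Cd3g, at 512 against 197 to 232. It was low for Gzmb, at 227 against 559 to 628, with a gap that equals the critical value to 3 digits, and for Prf1, at 49.1 against 91.8 to 93.7. WT replicate 1 was high for Gzmb, at 161 against 11.3 to 15.5. WT replicate 3 was high for Cd8a, at 48.4 against 10.8 to 15.6.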

How the results depend on the processing

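All 8 genes stayed past the threshold and higher in ARE-/- with an adjusted p under 0.01, a change of at least 2-fold, a mean of at least 10 normalised counts, and 15 refits in edgeR or DESeq2. The refits included library totals and the removal of pairs of libraries, chosen after seeing the data, and the highest adjusted p among them was 0.0397, for Gzmb. All 15 refits ran on genes already called from the same libraries, so passing again was favoured by that choice. Leaving out each library left 8 of 8 genes, and the median log2 difference of the 8 genes, 2.94, then lay between 2.75 and 3.17. Library totals raised the median difference of listed genes by 0.20. In that edgeR refit 70.7% of the genes past the threshold were higher, against 42.1% with TMM. With the replicate block all 8 genes stayed past the threshold. Deviations of same-numbered libraries correlated at 0.0443, 0.0441, -0.14 and 0.28, and 3 of 8 libraries correlated best with their own number, so the number was not taken as a pairing. With 7 libraries the smallest exact permutation p is 0.0571, so no relative difference could pass when a library was left out. The comparison with Ptprc alone could not be made, since Ptprc is not in the table. Low reads limit the WT values: the summed WT reads of a gene ran from 68 (Cd3e) to 189 (Cd3g).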

Other observations

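Granzyme genes next to Gzmb shared its division between libraries; they were looked at after values were seen. Gzmb, Gzmc and Gzmf lie on the reverse strand of chromosome 14 within 56995 bases. Gzmc was counted at 13, 2, 0 and 1 reads in WT replicates 1 to 4 and at 58, 414, 509 and 614 in ARE-/- replicates 1 to 4. As in Gzmb, WT replicate 1 was the high WT library and ARE-/- replicate 1 the low ARE-/- library, at 0.103 times the geometric mean of the others. Gzmf was counted at 3, 0, 0 and 1 reads in WT and 1, 6, 14 and 21 in ARE-/-, with overlapping groups. Of the 50-base windows of the longest annotated Gzmc transcript 4.14% occur in Gzmd, Gzme or Gzmg, so some Gzmc and Gzmf reads are uncertain, whereas none of those of Gzmb is shared.

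Beside Klrk1, 15 genes with Klr symbols were in the table, all on chromosome 6, with 14 higher and 1, Klrg2, lower. Many Klr genes encode lectin-like receptors of NK cells and some T cells. The symbol alone does not show which cells of these hearts made a transcript, and this was not tested. Klra2 was counted at 5, 6, 13 and 8 reads in WT and at 554, 157, 206 and 204 in ARE-/-, in order of replicate number, a log2 difference of 4.67 ± 0.41 (SE, n = 4 each). Klra5 was not counted in any WT library and was counted at 4, 32, 41 and 31 reads in ARE-/-. Set against 3 reads over the WT group, it was at least 33.6-fold higher in ARE-/-, for counting error only. ARE-/- replicate 1 was thus the highest ARE-/- library for Klra2 and the lowest for Klra5, and over the 15 genes it was the highest in 9 and the lowest in 5. Reads of Klr genes can be shared between copies: 29.0% of the windows of Klrb1b occur in other genes, against 0.732% in Klra5 and none in Klra2.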
